A study of Mus musculus with 106 samples.

Results

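The Fc receptor genes read here were the 6 mouse genes Fcgr1, Fcgr2b, Fcgr3, Fcgr4, Fcer1g and Fcgrt, named by symbol, of 21938 protein-coding genes in the annotation. Their histone marks were read at every annotated transcription start site (1 kb either side) and over the gene body with 10 kb on each side, in all 70 deposited peak lists, 35 of H3K27ac (histone acetylation found at active enhancers and promoters) and 35 of H3K4me3 (histone methylation found at active promoters). Both marks were measured by chromatin immunoprecipitation sequencing in 2 cell populations of C57BL/6J mice. The mice were 12 to 14 weeks old when assigned to the control or diabetic group. The HSC samples were bone marrow depleted of lineage-positive cells (CD3, CD4, B220, Ter119 and Gr1), a mixed haematopoietic stem and progenitor fraction. The BMDM samples were macrophages grown from marrow for 7 days in 5 mmol/L glucose with L929 cell medium, then left in medium alone (unstimulated) or given 100 ng/mL LPS, a bacterial cell wall product, with 10 ng/mL IFN-γ for 16 h. Diabetic mice had received 42 to 45 mg/kg streptozotocin, a toxin of pancreatic beta cells, on each of 5 days and were used 6 weeks later with blood glucose above 13.9 mmol/L, and control mice had not been made diabetic. Each mark had 6 control HSC, 6 diabetic HSC, 6 control unstimulated BMDM, 5 diabetic unstimulated BMDM, 6 control LPS+IFN-γ BMDM and 6 diabetic LPS+IFN-γ BMDM libraries.

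Fc receptors bind the constant stem of antibodies and tie antibody recognition to the response of the cell that carries them. Fcgr1 encodes the high-affinity IgG receptor, and Fcgr3 and Fcgr4 encode activating receptors of lower affinity. These activating chains signal through the common γ chain encoded by Fcer1g, whose ITAM motif recruits the kinase Syk. Fcgr2b encodes the inhibitory IgG receptor, which carries an ITIM motif and brings in phosphatases. Fcgrt encodes the heavy chain of the neonatal Fc receptor, which returns internalised IgG to the cell surface and so prolongs its life. Macrophages use the activating receptors for phagocytosis of antibody-coated particles, and IFN-γ is a classical inducer of Fcgr1.

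In GRCm38, the Fcgr2b (ENSMUSG00000026656), Fcgr4 (ENSMUSG00000059089), Fcgr3 (ENSMUSG00000059498) and Fcer1g (ENSMUSG00000058715) genes lie in that order on chromosome 1, at chr1:170958617-170976547 (minus strand), chr1:171018920-171029761 (plus strand), chr1:171051174-171064935 (minus strand) and chr1:171229572-171234365 (minus strand). Fcgr1 (ENSMUSG00000015947) is at chr3:96282909-96293969 and Fcgrt (ENSMUSG00000003420) at chr7:45092990-45103851, both on the minus strand. Fcer1g, the shortest at 4794 bp, shares its 10 kb window with starts of other protein-coding genes, Apoa2 and Tomm40l among them, and Rcn3 starts in the window of Fcgrt. A peak in such a window could belong to either gene.

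The promoter sequences of the 3 activating receptors are shown because IFN-γ and myeloid factors are known to act through short motifs in such promoters. They run from 250 bases before to 50 after the RefSeq start on GRCm38.p6, 5′ to 3′ along the gene, for Fcgr1 (chr3:96293920-96294219, minus strand), Fcgr3 (chr1:171059354-171059653, minus strand, at its downstream start) and Fcgr4 (chr1:171018676-171018975, plus strand). Capitals mark matches to GAGGAAG (the core bound by PU.1, written CTTCCTC where it lies on the other strand), to TTCNNNGAA (the GAS element, through which IFN-γ acts) and to GAAA, any 2 bases and GAAA (the ISRE element), searched on both strands.
Fcgr1: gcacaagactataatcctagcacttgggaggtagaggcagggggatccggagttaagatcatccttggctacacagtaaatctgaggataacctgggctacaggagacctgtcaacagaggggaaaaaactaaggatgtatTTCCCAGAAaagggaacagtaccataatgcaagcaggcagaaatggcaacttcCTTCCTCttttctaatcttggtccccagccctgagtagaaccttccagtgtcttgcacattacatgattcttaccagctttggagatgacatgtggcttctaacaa
Fcgr3: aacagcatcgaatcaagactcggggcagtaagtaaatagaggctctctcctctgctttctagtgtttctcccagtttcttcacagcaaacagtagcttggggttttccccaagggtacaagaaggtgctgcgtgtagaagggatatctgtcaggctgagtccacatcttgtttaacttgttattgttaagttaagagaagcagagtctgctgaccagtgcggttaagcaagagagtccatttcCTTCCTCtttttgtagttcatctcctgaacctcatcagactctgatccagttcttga
Fcgr4: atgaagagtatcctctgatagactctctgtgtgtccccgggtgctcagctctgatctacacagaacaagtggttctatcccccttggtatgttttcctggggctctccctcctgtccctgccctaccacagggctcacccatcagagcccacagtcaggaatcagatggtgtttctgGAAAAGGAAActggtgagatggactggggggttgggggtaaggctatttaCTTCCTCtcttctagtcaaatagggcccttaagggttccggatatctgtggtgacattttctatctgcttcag

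All 3 carried the PU.1 core upstream of the start, its first base at position -56 in Fcgr1, -7 in Fcgr3 and -23 in Fcgr4, counted from the start, against 13.6% of 32851 RefSeq promoters of the same length. Fcgr1 held a GAS match at -109 (8.30% of all promoters held 1), and Fcgr4 an ISRE match at -73 (3.44% of all). A C/EBP motif, TTGCNNAA, was matched in Fcgr3 and Fcgrt (10.8% of all promoters). The Fcgr2b and Fcer1g promoters matched none of these letters. These matches are letters in a window and were not tested as binding sites.

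The upstream start of Fcgr3 lies in a cluster of tRNA genes, the small non-coding genes transcribed by RNA polymerase III, and 4 of them around it are shown because the strongest peaks assigned to Fcgr3 covered them. The sequences are on GRCm38.p6, with each match to GGTTCGA, any 2 bases and CC, the B box inside a tRNA gene, in capitals. n-TGtcc1 (chr1:171064699-171064770) lies inside Fcgr3, and n-TDgtc3 (chr1:171065358-171065429), n-TLcag6 (chr1:171065984-171066066) and n-TGgcc12 (chr1:171066631-171066701) just upstream of it.
n-TGtcc1: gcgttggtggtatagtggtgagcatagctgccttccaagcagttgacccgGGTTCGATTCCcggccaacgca
n-TDgtc3: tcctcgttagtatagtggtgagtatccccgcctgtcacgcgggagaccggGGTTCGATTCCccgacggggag
n-TLcag6: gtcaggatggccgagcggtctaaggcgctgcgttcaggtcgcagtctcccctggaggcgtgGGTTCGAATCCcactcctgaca
n-TGgcc12: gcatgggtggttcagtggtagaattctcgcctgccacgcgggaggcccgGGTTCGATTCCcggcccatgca

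The unit was repeated nearby, where n-TGtcc1 and n-TDgtc3 were each 1 of 5 identical copies, n-TLcag6 of 4, and n-TGgcc12 of 3. In the window of this Fcgr3 start, 11.3% of the 50-base words were found once in the genome (median 3 copies, highest 14), against 92.7% around the other Fcgr3 starts and 95.3% to 100% in every other Fc receptor promoter. Reads were 50 bases long.

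Peak lists have no common scale between libraries, since lists held 51162 to 176559 peaks for H3K27ac and 13730 to 277213 for H3K4me3. Each protein-coding gene was therefore placed within its own list by the significance (−log10 p, column 8) of its strongest promoter peak and given a percentile from 0 to 100 among all 21938 genes. Genes with no promoter peak share 1 low value in each library, between 13.2 and 21.6 for H3K27ac and between 10.3 and 29.6 for H3K4me3. A percentile is a rank and not an amount of mark, and in bulk samples more cells of a type and more mark per cell cannot be told apart. Differences below are in percentile points, tested with limma over all genes, and "called" means an adjusted p under 0.05. The replicates were labelled as separate samples, and p-values measure the spread between them.

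The labelled populations were checked with marker genes. The mean H3K27ac percentile of 8 macrophage genes ranged from 29.2 to 43.3 in HSC and from 37.8 to 65.7 in unstimulated BMDM, and that of 8 stem and progenitor genes from 52.9 to 61.0 and from 35.1 to 53.5. Erythroid genes ran from 50.3 to 66.2 in HSC against 35.2 to 41.8 in unstimulated BMDM, B lymphocyte genes from 26.5 to 46.8 against 23.0 to 40.8, and T lymphocyte genes from 25.5 to 39.9 against 19.6 to 39.4. The 4 neutrophil genes ran from 25.8 to 39.0 in HSC, where 1 to 3 of them had a peak, and from 17.3 to 34.8 in unstimulated BMDM (0 to 3 with a peak). The 4 mast cell and basophil genes ran from 21.4 to 31.5 (1 to 2 with a peak) and from 16.1 to 27.9 (0 to 1), and the 3 natural killer genes from 14.7 to 23.8 and from 13.2 to 26.3 (0 to 1 in both). Of these 3 lists, Ncr1, Klrk1, Cpa3, Ms4a2 and S100a8 had no H3K27ac promoter peak in any of 35 libraries. The mean H3K27ac percentile of 10 LPS+IFN-γ response genes ran from 31.9 to 46.5 in unstimulated and from 35.9 to 53.1 in stimulated BMDM. These ranges overlapped. On the level of the 195 genes higher and 238 lower with stimulus in diabetic BMDM, 3 control BMDM libraries lay apart from their labelled groups. The mean H3K27ac percentile of the first set minus the second was -16.7 in control LPS+IFN-γ replicate 5, against -2.46 to 14.4 in the other 5, and was -0.0802 and -3.11 in control unstimulated replicates 5 and 6, against -24.7 to -6.50 in the other 4. The 2 control groups graded into each other, with unstimulated replicate 6 (-3.11) next to LPS+IFN-γ replicate 4 (-2.46), which was not set apart. A wrong label was not shown for any of the 3. In H3K4me3 the libraries with the same 3 labels lay inside their groups, at -23.1 (group -24.8 to -7.10) and at -19.8 and -21.1 (group -29.1 to -9.90). These 2 groups overlap over most of their range, so H3K4me3 cannot check the labels. The differences of Fc receptor genes that use these libraries are given with and without them.

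At promoters, H3K27ac ranked Fcgr3 first of the 6 genes on significance and Fcer1g second, then Fcgrt and Fcgr2b, with Fcgr4 and Fcgr1 last. In unstimulated BMDM (11 libraries, both disease states) the median percentile was 83.6 for Fcgr3, 56.8 for Fcer1g, 50.8 for Fcgrt, 45.3 for Fcgr2b, 20.3 for Fcgr1 and 17.3 for Fcgr4. In HSC (12 libraries) the medians were 57.6 for Fcgr3, 51.6 for Fcer1g, 47.6 for Fcgr2b, 38.9 for Fcgrt, 36.8 for Fcgr4 and 16.8 for Fcgr1. The ranges of neighbours in this order overlapped in both populations. The first place of Fcgr3 depends on the measure. Its main stretch had a median fold enrichment of 4.71, against 5.98 for that of Fcer1g. With peaks over tRNA genes left out, the Fcgr3 medians were 38.7 in unstimulated BMDM and 34.6 in HSC, below those of Fcer1g, Fcgrt and Fcgr2b. A promoter peak was present in all 35 libraries for Fcgr3 and Fcer1g, in 33 for Fcgrt, 32 for Fcgr2b, 18 for Fcgr4 and 15 for Fcgr1. Fcgr1, Fcgr2b and Fcgr4 never had a promoter peak among the 10000 most significant of a library.

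**Figure D1:**
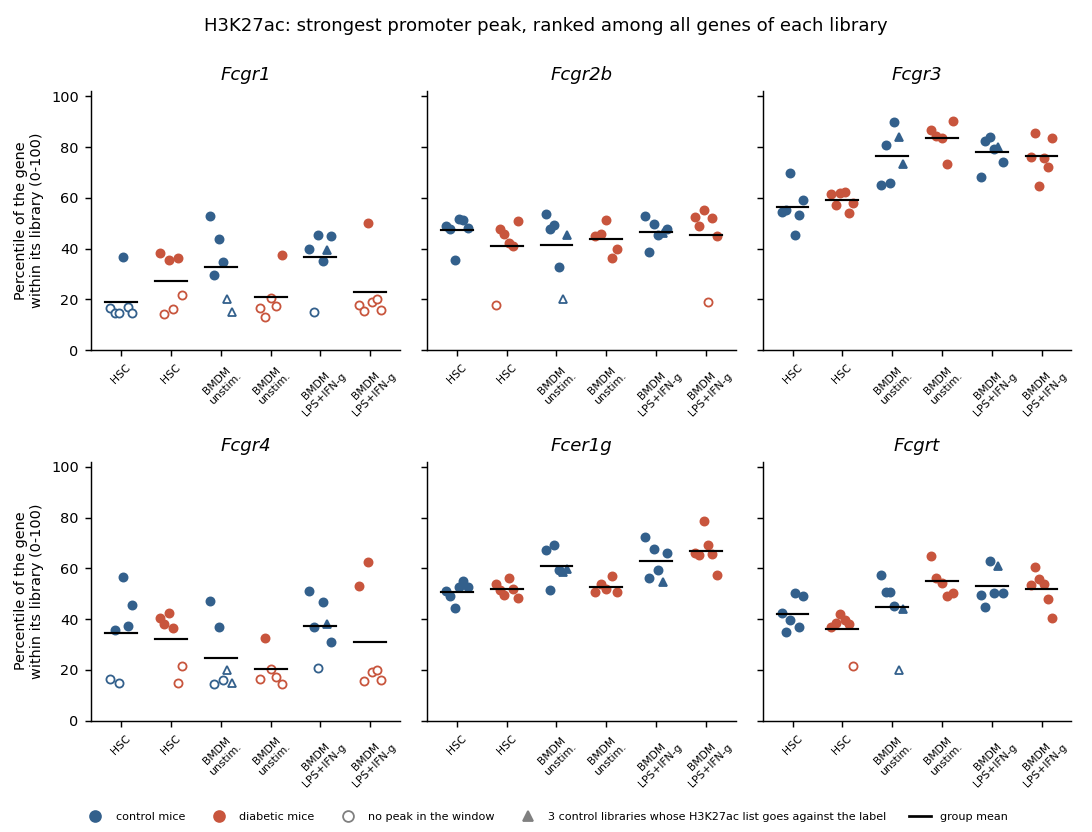
H3K27ac percentile (y axis, 0 to 100, within library) of the strongest promoter peak of each Fc receptor gene, by group (x axis); each point is a library, open symbols have no peak, triangles are the 3 control libraries that lay apart from their labelled groups, and bars are group means. Fcgr3 sits between 45.5 and 69.8 in HSC and between 65.1 and 90.2 in unstimulated BMDM. Fcgr1 has a peak in 15 and Fcgr4 in 18 of the 35 libraries, both in most control LPS+IFN-γ libraries.

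Unstimulated BMDM were first compared with HSC, which asks how the receptor promoters differ between progenitors and the macrophages grown from marrow. Fcgr3 was higher in BMDM in both control and diabetic mice. Fcer1g was higher in control mice and Fcgrt in diabetic mice. This was 2 of 6 genes called in each disease state, against 15.4% of 17620 genes tested in control mice and 15.2% in diabetic mice, and no Fc receptor gene was called lower. The median difference of the 6 genes was 6.38 in control and 1.84 in diabetic mice, beside -0.345 and -0.442 over all genes tested.

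For Fcgr3, the control HSC libraries ran from 45.5 through a median of 54.8 to 69.8, and the control unstimulated BMDM from 65.1 through 77.2 to 89.7. Of the 6 BMDM libraries, 4 lay above every HSC library, so the groups overlapped. The difference was 20.3 points (SE 4.20, limma adjusted p = 0.0005), and 19.2 without the 3 doubtful libraries (limma adjusted p = 0.00484). In diabetic mice, HSC ran from 53.9 through 59.7 to 62.3, and the 5 BMDM libraries were at 73.2, 83.6, 84.2, 86.6 and 90.2, with no overlap. That difference was 24.5 points (SE 4.40, limma adjusted p = 7.85e-05), and it was called with each of 11 libraries left out in turn, as was the control difference for 12. By exact permutation, adjusted over all genes, p was 0.0581 in control and 0.0296 in diabetic mice. The peak that set the value was the same stretch, chr1:171063595-171066359, in 34 of 35 libraries, and it covered all tRNA genes printed above but n-TGgcc12.

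When peaks over tRNA genes were left out, a choice made after seeing the data, the Fcgr3 percentile fell to medians of 34.6 in HSC and 38.7 in unstimulated BMDM. The stretch that had set the value also spans the upstream start of Fcgr3, at chr1:171064935. Leaving it out removes both, so tRNA and Fcgr3 promoter signal cannot be told apart. The cell type difference was then 0.431 points in control mice (limma adjusted p = 0.978) and 4.72 in diabetic mice (limma adjusted p = 0.727). Ranked by fold enrichment in place of significance, the differences were 11.7 (limma adjusted p = 0.129) and 7.92 (limma adjusted p = 0.379). The share of 403 tRNA genes with an H3K27ac peak had a median of 44.2% in HSC and 35.5% in unstimulated BMDM. How reads that fit several places were handled was not given in the sources used here, and its part in the Fcgr3 result was not tested.

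**Figure D2:**
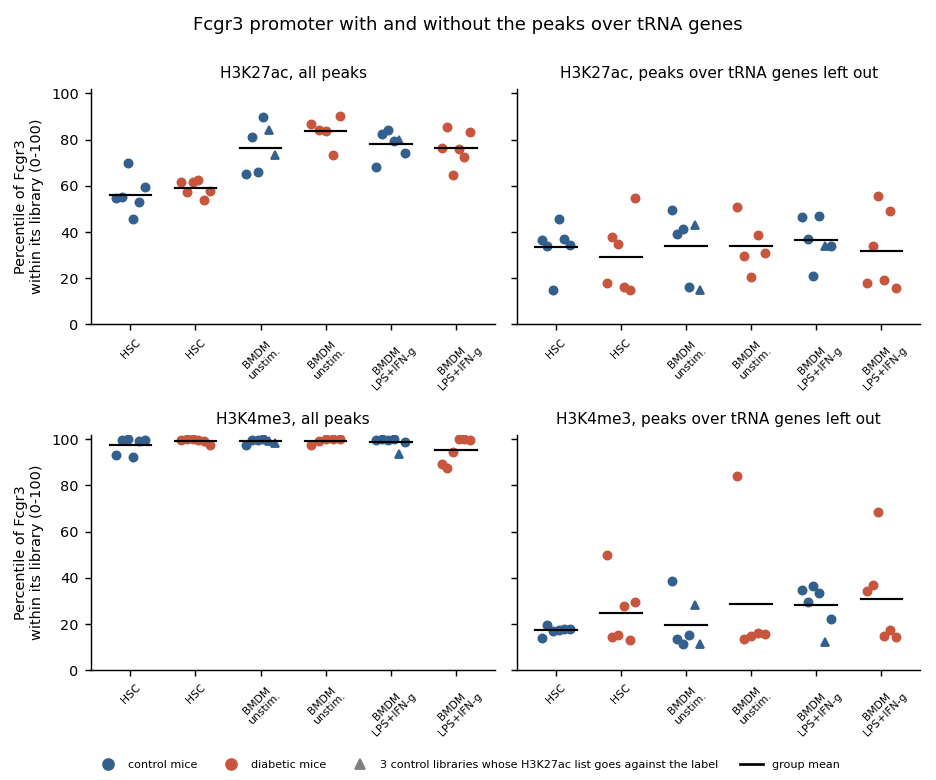
Percentile of the strongest Fcgr3 promoter peak (y axis, 0 to 100) in H3K27ac and H3K4me3 for each library, by cell state, with all peaks and with peaks over tRNA genes left out; each point is a library. Without tRNA peaks the H3K27ac medians of the 3 cell states lie between 34.0 and 38.7, and the H3K4me3 medians drop from 99.6 or more to 31.6 or less.

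The γ chain gene Fcer1g had its promoter peak at chr1:171233364-171234676 in all 35 H3K27ac libraries, with a fold enrichment between 3.61 and 13.3 (median 5.98). This stretch also lies in the promoter window of a neighbouring gene. In control mice, HSC ran from 44.2 through a median of 51.8 to 54.9 and unstimulated BMDM from 51.6 through 59.5 to 69.4, and 5 of 6 BMDM libraries lay above every HSC library. The difference was 10.3 points (SE 3.51, limma adjusted p = 0.0389). In diabetic mice the 5 BMDM libraries stood at 50.6, 50.7, 51.8, 53.6 and 56.8, among HSC values from 48.1 to 56.1, and the difference was 0.876 (SE 3.68, limma adjusted p = 0.920). The control call was near the threshold and held in 5 of 11 alternative settings (adjusted p = 0.0680 by exact permutation). It was lost without control unstimulated replicate 1 (8.99, adjusted p = 0.0887), 3 (8.59, 0.112) or 6 (10.5, 0.0546), without control HSC replicate 1 (10.3, 0.0582), 2 (9.96, 0.0675) or 3 (8.95, 0.0942), and without the 3 doubtful libraries (11.1, 0.0551), all by limma.

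Fcgrt, the neonatal receptor gene, showed its cell type difference in diabetic mice. HSC ran from 21.6 through 38.2 to 42.2 and the BMDM libraries were at 49.0, 50.4, 54.4, 56.2 and 64.8, with no overlap. The difference was 18.8 points (SE 4.96, limma adjusted p = 0.00642) and was called with each of 11 libraries left out. In control mice, HSC ran from 35.01 through 40.9 to 50.1 and BMDM from 20.1 through 47.9 to 57.3, and the difference was 2.51 (SE 4.73, limma adjusted p = 0.772), and 8.79 without the 3 doubtful libraries (limma adjusted p = 0.227). The lowest control BMDM value was replicate 5, 1 of the 3 doubtful libraries, which had no Fcgrt promoter peak. The peak that set the value spanned chr7:45101819-45104666 in 33 libraries, over exon and promoter sequence of Fcgrt, with a median rank in its list of 39431 in HSC and 16613.5 in unstimulated BMDM.

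Fcgr1, Fcgr2b and Fcgr4 were not called in either disease state. Fcgr1 differed by 13.6 points in control mice (SE 6.12, limma adjusted p = 0.131) and differed by -6.04 in diabetic mice (limma adjusted p = 0.587), and a peak was present in 1 of 6 control HSC, 3 of 6 diabetic HSC, 4 of 6 control BMDM and 1 of 5 diabetic BMDM libraries. Without the 3 doubtful libraries, the control difference for Fcgr1 was 21.2 (limma adjusted p = 0.0275). Fcgr2b differed by -5.74 in control and 2.81 in diabetic mice, and Fcgr4 by -9.52 and -12.1, with limma adjusted p between 0.309 and 0.798. The control differences of both were -1.36 and -5.83 without the 3 libraries (limma adjusted p = 0.920 and 0.712). The differences between the 2 disease states in the cell type effect, tested as an interaction, were 16.3 points for Fcgrt, -19.6 for Fcgr1 and -9.38 for Fcer1g. After adjustment limma called none of 17620 genes, with 528 at an unadjusted p under 0.05, Fcgrt and Fcgr1 among them. Without the 3 libraries these differences were 10.0, -27.2 and -10.3, and none of the 6 genes was called. The cell type difference is thus not shown to differ between control and diabetic mice for any of these genes.

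The stimulated BMDM were then compared with unstimulated BMDM, which were the same unstimulated libraries as in the cell type comparison. Fcer1g was higher with LPS+IFN-γ in diabetic mice, 1 of 6 Fc receptor genes against 2.46% of all genes. In control mice limma called none of the 6 and 0% of all genes, with 916 genes at an unadjusted p under 0.05. The 6 diabetic LPS+IFN-γ libraries ran from 57.5 through 65.8 to 78.6 for Fcer1g, all above the 5 unstimulated libraries (50.6 to 56.8). The difference was 14.3 points (SE 3.68, limma adjusted p = 0.0269). In control mice, stimulated libraries ran from 54.8 through 62.8 to 72.2 and unstimulated from 51.6 through 59.5 to 69.4, an overlap, with a difference of 1.76 (SE 3.51, limma adjusted p = 0.993), and 2.47 without the 3 doubtful libraries (limma adjusted p = 0.897). The interaction was 12.5 points (limma adjusted p = 0.744; 11.8 and 0.971 without them), so the effects in the 2 disease states were not shown to differ. The diabetic call held in 6 of 10 alternative settings (adjusted p = 0.179 by exact permutation) and was lost without LPS+IFN-γ replicate 3 (12.0, limma adjusted p = 0.0992) or unstimulated replicate 1 (13.8, 0.0519), 4 (14.1, 0.0532) or 6 (13.8, 0.0570).

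The other 5 genes were not called with stimulation. Fcgr1, the IFN-γ-inducible receptor gene, differed by 4.0 points in control mice (SE 6.12, limma adjusted p = 0.990) and 2.02 in diabetic mice (SE 6.42, limma adjusted p = 0.895). Its promoter had an H3K27ac peak in 5 of 6 control and 1 of 6 diabetic stimulated libraries. Fcgr4 had a peak in 5 of 6 control stimulated libraries against 2 of 6 unstimulated, and in 2 of 6 against 1 of 5 in diabetic mice. Its differences were 12.6 (SE 7.28, limma adjusted p = 0.942) and 10.7 (SE 7.63, limma adjusted p = 0.483). Fcgr2b differed by 5.18 and 1.79, Fcgr3 by 1.47 and -7.22, and Fcgrt by 8.44 and -3.01 in control and diabetic mice. Without the 3 doubtful libraries the control differences were -4.12 for Fcgr1, of the opposite sign, 8.79 for Fcgr4, 0.926 for Fcgr2b, 2.2 for Fcgr3 and 0.605 for Fcgrt (limma adjusted p from 0.791 to 0.984). With standard errors of this size, differences in rank of 10 points, and also of 20 points, could be missed. On simulated data for the control cell type comparison, 14 of 100 genes shifted by 10 points and 59 of 100 shifted by 20 were called among 17620. The stimulation comparison was not simulated.

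Diabetic and control mice were compared in each cell state, with the same libraries as above. For H3K27ac promoters limma called 0% of genes, the Fc receptor genes included, with 389 genes at an unadjusted p under 0.05 in HSC, 1016 in BMDM without and 808 with stimulus. The Fc receptor genes at an unadjusted p under that level were Fcer1g in unstimulated BMDM (-8.28 points, SE 3.68, limma adjusted p = 0.830), Fcgrt in unstimulated BMDM (10.2, SE 4.96, limma adjusted p = 0.851) and Fcgr1 in LPS+IFN-γ BMDM (-13.6, SE 6.12, limma adjusted p = 0.983). The Fcer1g groups overlapped, with 2 of 5 diabetic libraries below every control library, and for Fcgrt 1 of 5 lay above every control library. Without the 3 doubtful libraries these 3 differences were -9.16 (limma adjusted p = 0.920), 3.96 (0.976) and -13.0 (0.989), and Fcgr1 in unstimulated BMDM differed by -19.2 (0.875), against -11.6 (0.905) with them. In HSC, the 6 differences lay between -6.36 (Fcgr2b) and 8.01 (Fcgr1).

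For H3K4me3, the promoters split into Fcgr3 at the very top of the lists, Fcer1g in the middle and the other 4 low. Fcgr3 was at 87.7 or above in all 35 libraries and its peak among the 10000 most significant in each. A promoter peak was present in 31 libraries for Fcer1g, 21 for Fcgrt, 15 for Fcgr2b, 5 for Fcgr1 and 2 for Fcgr4. All 5 Fcgr1 peaks and both Fcgr4 peaks were in BMDM, at ranks of 37500 to 95381 and 86327 to 165291 in their lists. The HSC lists were shorter, with a median of 59726.5 peaks against 131406 in unstimulated and 137890 in stimulated BMDM. List length and cell type thus cannot be told apart for these peaks. The Fcgr3 value was set by peaks over tRNA genes in all 35 libraries, and without them its median was 17.6 in HSC, 15.3 without stimulus and 31.6 with stimulus in BMDM. A promoter peak then remained in 2 of 12, 3 of 11 and 8 of 12 libraries, and the highest values were 49.9, 84.0 and 68.3.

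**Figure D3:**
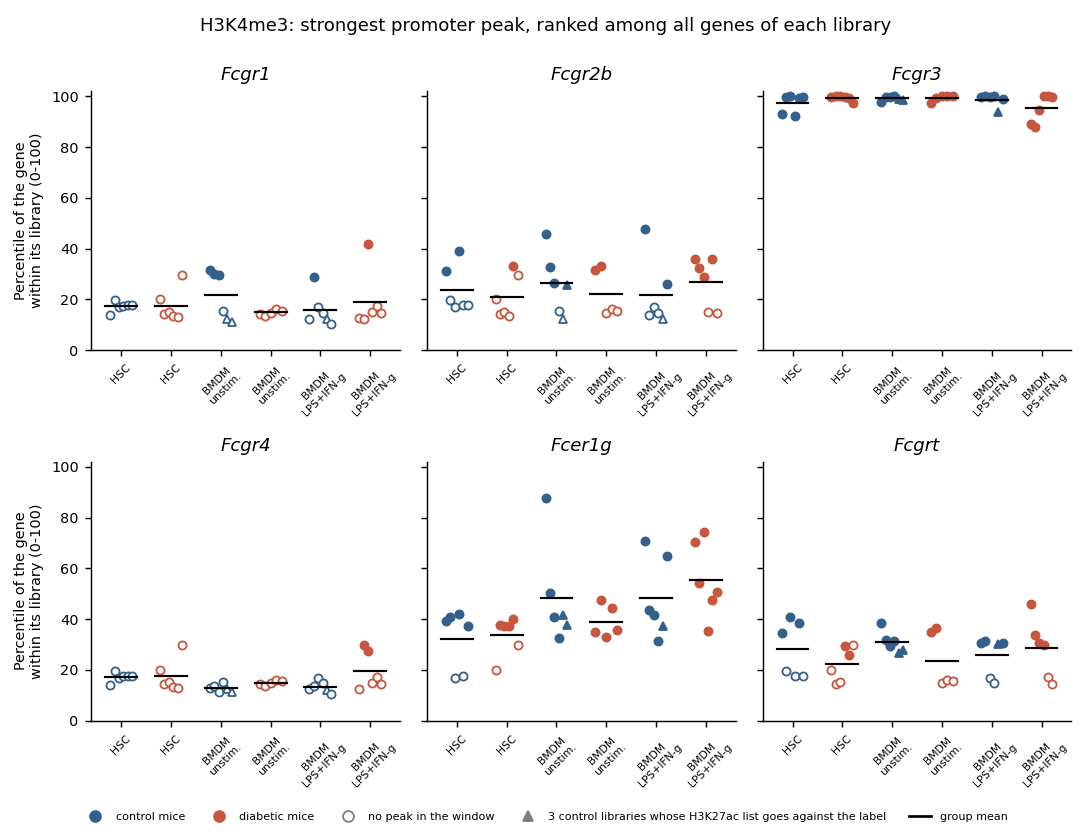
H3K4me3 percentile (y axis, 0 to 100, within library) of the strongest promoter peak of each Fc receptor gene, by group (x axis). Each point is a library, open symbols have no peak, and bars are group means. Triangles are the H3K4me3 libraries with the labels of the 3 control H3K27ac libraries in doubt. At the stimulus genes they lay inside their H3K4me3 groups, which overlap too far to check the labels. Fcgr3 lies between 87.7 and 100.0 in every group, and Fcgr1 and Fcgr4 have a peak in 5 and 2 of the 35 libraries.

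No Fc receptor promoter was called for H3K4me3 in any comparison. The background was 5.19% of 17955 genes between BMDM and HSC in control mice and 0.334% in diabetic mice, and 0% for stimulation and disease (597 and 1200 genes at an unadjusted p under 0.05 for stimulation in control and diabetic mice, and 823, 714 and 921 for disease in HSC, unstimulated and stimulated BMDM). Fcer1g came closest. In control mice its H3K4me3 ran from 16.8 through 38.4 to 41.9 in HSC and from 32.6 through 41.3 to 87.7 in unstimulated BMDM, with 2 of 6 BMDM libraries above every HSC library, and the difference was 16.2 points (SE 7.19, limma adjusted p = 0.156), and 20.6 without the 3 libraries (limma adjusted p = 0.173). In diabetic mice it ran from 33.1 through 35.5 to 47.5 without stimulus and from 35.4 through 52.5 to 74.1 with it, a difference of 16.4 (SE 7.54, limma adjusted p = 0.702), with 4 of 6 stimulated libraries above every unstimulated library.

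Outside promoters, H3K27ac was read as the strongest peak in the gene body and 10 kb flanks that touched no promoter window of a protein-coding gene. Fcgr1 stood high here in every library. HSC of control mice ran from 91.4 through 93.5 to 97.1 and unstimulated BMDM from 74.8 through 80.5 to 93.9, and 5 of 6 BMDM libraries lay below every HSC library. The difference was -12.1 points (SE 3.44, limma adjusted p = 0.0120), 1 of 6 genes against 15.1% of 19276, and it was called with each of 12 libraries left out but was -9.75 (limma adjusted p = 0.0890) without the 3 doubtful libraries. In diabetic mice the difference was -8.96 (SE 3.61, limma adjusted p = 0.0843). The value was set in 28 of 35 libraries, all 12 HSC included, by chr3:96277622-96278628, which lies 15845 bp downstream of the Fcgr1 5′ end, past the gene, in an exon of the annotated gene Gm42743.

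Fcgr4 was the only gene called outside promoters in diabetic mice, at -7.27 points (SE 2.51, limma adjusted p = 0.0407), 1 of 6 against 15.2% of all genes. Its HSC values ran from 98.4 through 99.0 to 99.4 and its unstimulated BMDM from 80.1 through 96.4 to 98.4, with 4 of 5 BMDM libraries below every HSC library. Here too a tRNA gene was near: the stretch chr1:171038006-171038594, 3′ of Fcgr4, set the value in 34 of 35 libraries, and in 22 the peak covered a tRNA gene. With such peaks left out the difference was 12.7 (limma adjusted p = 0.571), of the opposite sign. With flanks of 5 kb in place of 10 kb it was -16.3 (limma adjusted p = 0.264), and Fcgr1 (-11.7, 0.0404) and Fcgrt (27.7, 0.0314) were called. The call was also lost without diabetic unstimulated replicate 5 (-4.38, limma adjusted p = 0.245) or 6 (-5.73, 0.147) and without any 1 of the 6 HSC libraries (-7.36 to -7.16, 0.0536 to 0.0614). Fcgrt differed by 23.4 points in diabetic mice (SE 8.93, limma adjusted p = 0.0664). With stimulation limma called 0% of genes in control mice (903 at an unadjusted p under 0.05) and 1.05% in diabetic mice, and none of the 6 Fc receptor genes. The largest of their differences was that of Fcer1g in diabetic mice, 29.5 points (SE 11.4, limma adjusted p = 0.222), from unstimulated values of 25.5 through 55.8 to 70.4 to stimulated values of 68.2 through 81.4 to 96.1.

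Peaks were also read at single stretches of each window. A stretch was a run covered by a peak in at least 6 of 35 libraries, and its share of libraries was compared by Fisher's exact test with control and diabetic libraries pooled, a test added after seeing the data. Of 74 H3K27ac stretches in the Fc receptor windows, 5 were called between HSC and unstimulated BMDM, all held more often in BMDM, against 5.65% of 208582 stretches genome-wide. The share was near that background, so the stretches below are a description of places.

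Fcgr1 had 2 of the 5, both upstream of the gene and outside any exon. At chr3:96299674-96300206 a peak was present in 0 of 12 HSC, 8 of 11 unstimulated and 8 of 12 stimulated BMDM libraries (exact adjusted p = 0.0143). At chr3:96301535-96302403 it was present in 2 of 12, 10 of 11 and 10 of 12 (exact adjusted p = 0.0204). The upstream stretches were thus held mostly in BMDM, while the strong downstream stretch over Gm42743 was held in all 35 libraries. The Fcgr1 promoter stretch chr3:96292603-96293710 was held in 4 of 12 HSC, 6 of 11 unstimulated and 8 of 12 stimulated libraries (exact adjusted p = 0.710), and chr3:96291495-96291818 in the gene in 0, 3 and 7 libraries (exact adjusted p = 0.297).

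**Figure D4:**
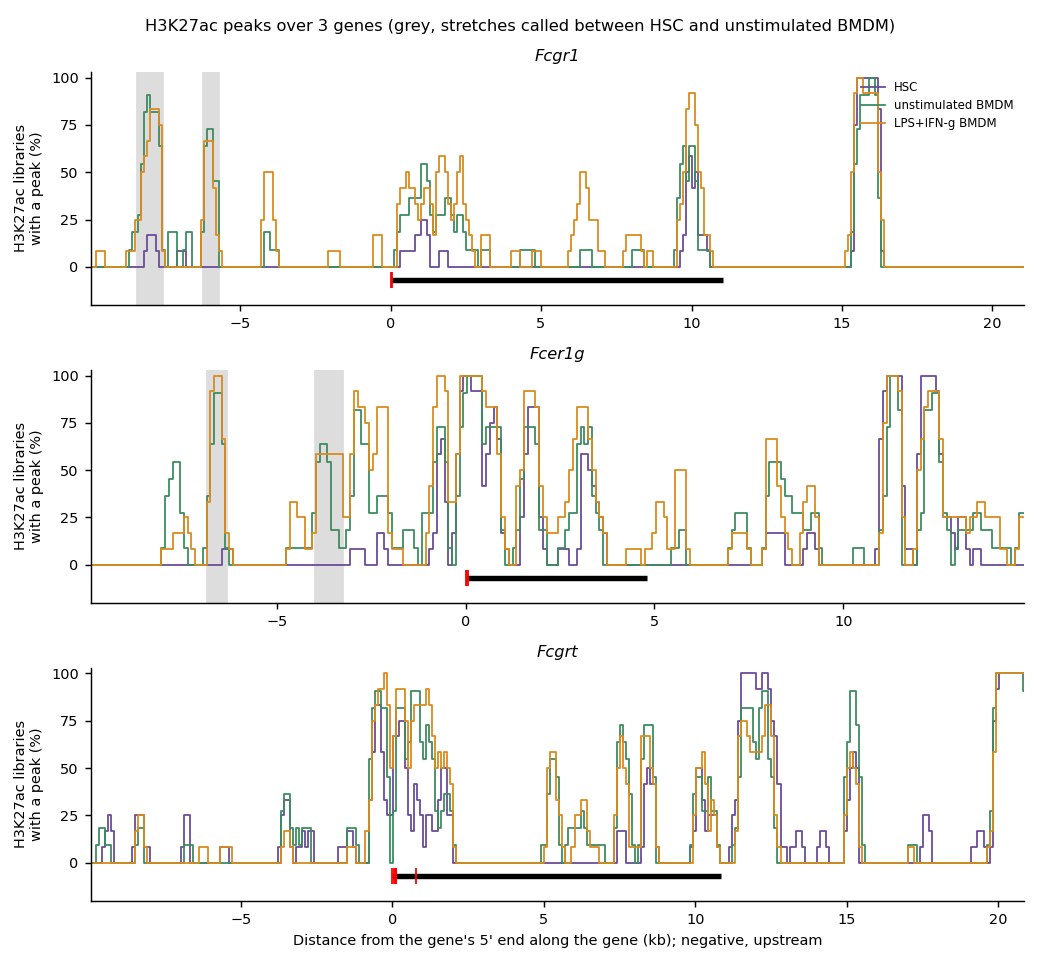
Percent of libraries with an H3K27ac peak (y axis) by distance from the 5′ end (x axis, along the gene) of Fcgr1, Fcer1g and Fcgrt, for HSC and for BMDM with and without stimulus; grey bands are stretches called between HSC and unstimulated BMDM. Both called Fcgr1 stretches lie upstream of its start, and in each band the BMDM lines stand above the HSC line.

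Another called stretch was 3′ of Fcgr3, chr1:171050037-171050383, in 0 of 12 HSC, 7 of 11 unstimulated and 3 of 12 stimulated libraries (exact adjusted p = 0.0295), and 88.6% of its 50-base words were unique. None of the stretches at Fcgr2b, Fcgr4 or Fcgrt was called. With stimulation Fisher's exact test called 0% of stretches of either mark.

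For H3K4me3, 3 of 54 stretches were called, again all more often in BMDM, against 3.75% of 204901 stretches. They were chr1:171232431-171232886 inside Fcer1g (1 of 12 HSC, 9 of 11 unstimulated and 7 of 12 stimulated BMDM, exact adjusted p = 0.0257), chr7:45095135-45095660 over an Fcgrt exon (1, 9 and 7 libraries, exact adjusted p = 0.0257) and chr7:45096000-45096425 inside Fcgrt (0, 8 and 6 libraries, exact adjusted p = 0.0218). The H3K4me3 lists of HSC were shorter, with a median of 59726.5 peaks against 131406 in unstimulated BMDM, and 7683 of the 7693 stretches called genome-wide were more often in BMDM. With all lists brought to equal length, 0 of 8 remaining Fc receptor stretches were called, against 154 of 17879 genome-wide. Without the 3 doubtful libraries it was 0 of 54, against 1748 of 204901. For H3K27ac the median list lengths were 125766 and 111095. At equal length 4 of 43 stretches were called, against 10788 of 87246 genome-wide. Without the 3 libraries it was 5 of 74, against 9907 of 208582.

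The tRNA unit at the 5′ end of Fcgr3 held some of the most significant H3K4me3 peaks of the lists. The stretches chr1:171063550-171067056 and chr1:171069852-171074641, which hold 5 tRNA genes each, were covered in all 35 libraries, with median ranks of 80 and 75 in lists whose median length was 96580. Their median fold enrichment was 4.72 and 5.16, beside 4.01 for the Fcer1g promoter stretch at a median rank of 21883. Of their 50-base words only 18.2% and 16.7% were unique, and a rank on significance is not an amount of mark. Across all 403 tRNA genes, a median of 36.7% had an H3K4me3 peak in HSC, 36.7% in unstimulated and 42.6% in stimulated BMDM. In H3K27ac the promoter stretch of Fcgr3 was held in 11 of 12 HSC, all 11 unstimulated and all 12 stimulated libraries, and was the gene's strongest promoter peak in 34. The stretch chr1:171071087-171073876, further upstream and outside promoter windows, was held in all 35, with a median rank of 6113 against 5670 for the promoter stretch. The downstream Fcgr3 starts, where RefSeq places its promoter, had H3K27ac in part of the libraries. For example, chr1:171056833-171057458 was held in 4, 5 and 7 libraries and chr1:171060372-171060822 in 6, 3 and 3. With peaks over tRNA genes left out, an H3K27ac peak in any Fcgr3 promoter window remained in 8 of 12 HSC, 8 of 11 unstimulated and 8 of 12 stimulated libraries.

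**Figure D5:**
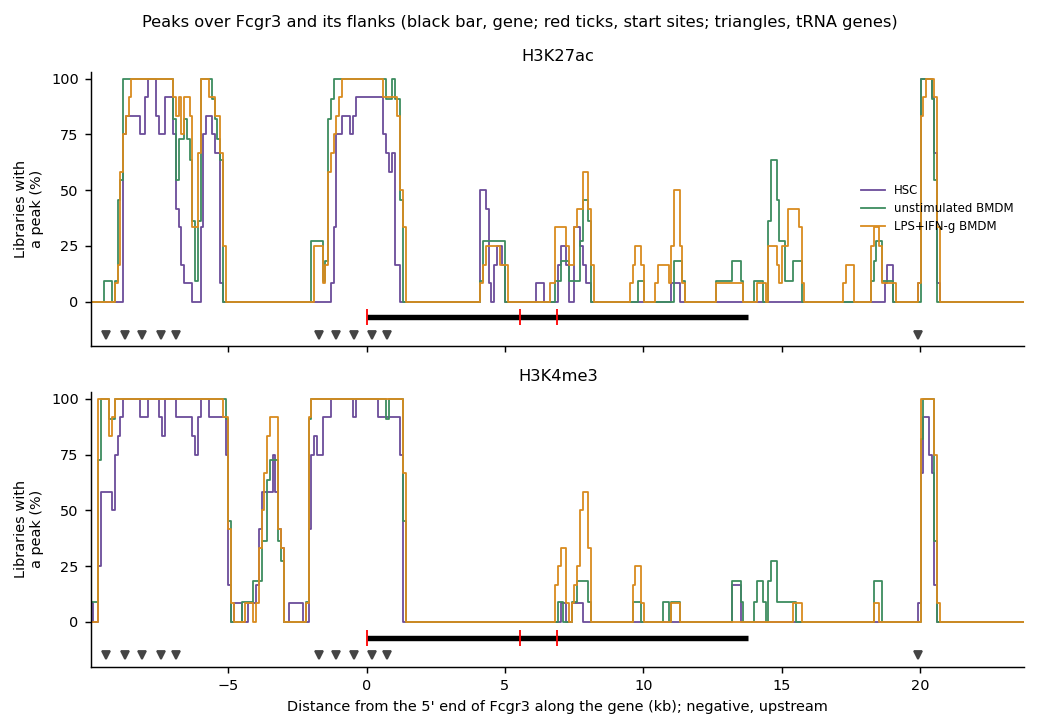
Percent of libraries with a peak (y axis) by distance from the 5′ end of Fcgr3 (x axis, along the gene), for H3K27ac and H3K4me3 in HSC and in BMDM with and without stimulus; triangles mark tRNA genes and red ticks the annotated starts. At the 5′ end the H3K4me3 stretch held a peak in all 35 libraries and the H3K27ac stretch in 34. H3K27ac over n-TGgcc12 just upstream was held in 0 of 12 HSC, 4 of 11 unstimulated and 3 of 12 stimulated libraries. Occupancy is lower at the downstream starts than at the 5′ end.

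Genes that act with the Fc receptors were read in the same way at H3K27ac promoters between HSC and unstimulated BMDM. Of 13 activating signalling genes, 5 were higher in BMDM in control mice and 6 in diabetic mice, and none was lower, against 15.4% and 15.2% of all genes in either direction. Plcg2, the phospholipase Cγ2 gene, differed by 19.1 points in control mice (limma adjusted p = 0.00158) and 16.9 in diabetic mice (0.00765). Others, named after their values were seen, were Syk, Lyn and Prkcd in both disease states and Vav3 in diabetic mice. With LPS+IFN-γ, Lat2, an adapter gene, rose in diabetic mice (17.4 points, limma adjusted p = 0.0477), 1 of the 13 against 2.46% of all genes.

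Of 6 inhibitory signalling genes, Ptpn11, which encodes the phosphatase SHP-2, was lower in control BMDM (-15.5 points, limma adjusted p = 0.00692; -9.45 in diabetic mice, adjusted p = 0.140), and none was called in diabetic mice. Of 4 adapter and partner genes tested, Cd247, the CD3ζ chain gene, was lower in diabetic BMDM (-15.5 points, limma adjusted p = 0.0383), and Tyrobp, which encodes DAP12, differed by 8.67 points in control mice without a call. Of 7 other Fc receptor and Fc receptor-like genes tested, Fcrlb and Fcrl1 were higher in BMDM in both disease states. Fcrlb differed by 27.5 points in control mice (limma adjusted p = 0.00209) and 24.6 in diabetic mice (0.00880), and Fcrl1 by 19.9 (0.0165) and 18.2 (0.0401). Fcer2a, the low-affinity IgE receptor gene, named after its values were seen, was lower in control BMDM (-14.0, limma adjusted p = 0.0148). For H3K4me3 in control mice, the genes called included Tyrobp, Fcrl1 and Fcer2a, all higher in BMDM, against 5.19% of all genes. Exact permutation called 0 of 17955 genes in that comparison. The H3K4me3 lists of HSC were shorter, so list length and cell type cannot be told apart for these calls. These lists were read with all libraries. The levels of these lists were not compared with the Fc receptor genes by a test.

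As a description, the genes whose H3K27ac promoter percentile followed each Fc receptor gene most closely over the 35 libraries were, by Pearson's r, Lat2 (0.837), Rasa4 (0.824) and Tcp10a (0.821) for Fcer1g, and Slamf7 (0.690), Lyz2 (0.663) and C3ar1 (0.653) for Fcgr1. They were Errfi1 (0.882), Vegfa (0.872) and Apbb2 (0.868) for Fcgr3, and Trpm1 (0.802), Zfp236 (0.726) and Ctss (0.714) for Fcgr2b. For Fcgr4 they were Acod1 (0.684), 0610009B22Rik (0.671) and Stk11ip (0.670), and for Fcgrt they were Rasgrp3 (0.793), Siglec1 (0.789) and Gm2310 (0.789). The libraries share cell state and list length, so no test was made of these values.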

How the data were processed

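Chromatin immunoprecipitation used antibodies to H3K27ac (ab4729) and H3K4me3 (ab8580), with 50-bp single reads. The submitters' processing notes name Trim Galore 0.3.3, cutadapt 1.8, FastQC 0.11.3, Bowtie2 2.2.6, Picard 2.18.14 and 2.19.2, MACS2 2.2.7.1, bedtools 2.19.1 and the build GRCm38/mm10. The deposited peak lists, 1 per library, give a score, a fold enrichment, −log10 p and −log10 q for each peak, as the authors' peak caller wrote them, and end near q 0.05. How reads that fit several places were treated is not given in the sources used here. The lists give no read depth, so list length stands in for it and no counting interval could be set. The 36 input samples had no file analysed here.

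Python 3.11.15 (numpy 2.4.6, pandas 2.3.3, scipy 1.17.1, matplotlib 3.10.9), R 4.3.3 and limma 3.58.1 were used. Peaks sharing 1 bp with a window 1000 bp either side of any of 93513 protein-coding starts (GENCODE M21) were assigned to the gene, and genes were ranked within each list on −log10 p. Genes with a peak in at least 2 of 35 libraries of a mark were tested by limma (trend, robust) with all 6 groups sharing the spread and Benjamini-Hochberg adjustment over all genes tested, two-sided. The procedure was tested on simulated data with 200 shifted genes. Alternatives were another ranking column, lists of equal length, a q of 0.01, a promoter of 500 bp, summits only, no gene filter, 5 kb flanks, 2 groups only, exact permutation, the replicate block, each library left out, the 3 control BMDM libraries left out and, added after seeing the data, peaks over tRNA genes left out. Replicate numbers were not used as a pairing, since in no comparison was every pair's correlation over 0.1. The genes named were the 6 Fc receptor genes, the 2 genes of each signalling list with the largest H3K27ac promoter difference in control mice, genes with a start in a window, and the 3 most alike genes by Pearson's r. The 6 genes, the lists and the tests were chosen with earlier results of these data known. Motifs, promoters and tRNA genes were taken from RefSeq on GRCm38.p6. Some genes and sequences that these rules name are not reported here.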

Additional observations from a re-analysis of the deposited data

Results flagged for a closer look

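Within each group of 5 or 6 libraries, the highest or lowest percentile was set against the nearest other value with Dixon's test at the 95% level. It stood apart in 20 of 108 groups. In 4 of the 20 it was the 1 library of its group with a peak and in 7 the 1 library without. The chance rate of about 1 in 20 is for normally distributed values. It need not hold here, where genes without a peak share 1 low value in each library.

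For the H3K27ac promoter, Fcgr1 was at 50.0 in diabetic LPS+IFN-γ replicate 3 and at 36.7 in control HSC replicate 4, in each case the library of its group with a peak, and at 14.9 in control LPS+IFN-γ replicate 2, which had none. Fcgr2b was at 19.1 in diabetic LPS+IFN-γ replicate 4 and at 17.8 in diabetic HSC replicate 1, both without a peak, and at 35.6 in control HSC replicate 3. Fcgrt had no peak in diabetic HSC replicate 6 (21.6) or control unstimulated replicate 5 (20.1), the latter a library whose stimulation label was in doubt.

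Outside promoters, H3K27ac at Fcgr2b was 46.4 in control LPS+IFN-γ replicate 5. Fcgr3 was at 93.8 in diabetic LPS+IFN-γ replicate 3 and 90.6 in control unstimulated replicate 1, both lower than the rest of their groups. Fcgr4 was at 82.1 and Fcgrt, with no peak, at 26.8 in control unstimulated replicate 5, and Fcer1g, with no peak, at 13.6 in control LPS+IFN-γ replicate 2.

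For the H3K4me3 promoter, Fcgr1 was the gene of 2 lone peaks, at 41.9 in diabetic LPS+IFN-γ replicate 3 and 28.9 in control LPS+IFN-γ replicate 2. Fcgr3 was lower than its group at 97.3 in diabetic unstimulated replicate 1, 97.4 in diabetic HSC replicate 6 and 93.8 in control LPS+IFN-γ replicate 5. Fcer1g was at 87.7 in control unstimulated replicate 1, the highest Fcer1g value for this mark.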

How the results depend on the processing

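For H3K27ac promoters, the number of Fc receptor genes called between HSC and unstimulated BMDM in control mice was 2, and 1 with lists of equal length, without peaks over tRNA genes, without the gene filter or with 2 groups only, 0 on fold ranking or by exact permutation, and 1 to 2 with 1 library left out. It stayed at 2 without the 3 control BMDM libraries, but as Fcgr3 and Fcgr1 in place of Fcgr3 and Fcer1g. In diabetic mice it was 2, and 1 on fold ranking or without tRNA peaks. For stimulation in diabetic mice it was 1, and 0 on fold ranking, with 2 groups only, with the replicate block or by exact permutation, and 0 to 1 with 1 library left out. Outside promoters it was 1 in control mice (0 without the 3 control BMDM libraries or by exact permutation) and 1 in diabetic mice (2 with 5 kb flanks, Fcgr1 and Fcgrt in place of Fcgr4, 0 without tRNA peaks, without the gene filter, with 2 groups only or by exact permutation, and 0 to 1 with 1 library left out). Fcgr4 outside promoters in diabetic mice turned to 12.7 without tRNA peaks. The 3 H3K4me3 stretches fell to 0 at equal list length and without the 3 libraries. Genome-wide, 154 of 17879 and 1748 of 204901 stretches were called under these 2 settings. The causes of these changes were not tested. Fcgrt in diabetic mice was called under all 10 other settings (18.5 to 24.9 points).

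The counts of genes called overall moved more: 2719 (1617 by exact permutation), 2681 (1531 on fold ranking), 433 (0 by exact permutation to 760 without diabetic LPS+IFN-γ replicate 6), 931 (0 by exact permutation to 1507 without control HSC replicate 1), 60 (0 by exact permutation to 318 without diabetic HSC replicate 5), 2905 (1712 by exact permutation), 2930 (948 by exact permutation) and 203 (0 by exact permutation). Without the 3 libraries, stimulation in control mice called 74 promoters and 19 genes outside promoters in place of 0. The 3 had been picked for their level at stimulus genes, so the choice itself favours a rise in this comparison. The smallest p that exact permutation can give is 0.00216. Same-numbered libraries had correlations of -0.288 to 0.363 in 117 pairs, with 28 over 0.1 and 29 best with their own number, and in no comparison was every pair over 0.1, so the number was not used as a pairing. Between stimulated and unstimulated BMDM of diabetic mice all 5 pairs were above 0 (0.0251 to 0.355 for H3K27ac promoters, 0.0109 to 0.336 for H3K4me3), so shared deviations remain possible there. In control mice the same pairs ran from -0.170 (replicate 5) to 0.324 (replicate 1) for H3K27ac promoters. For H3K4me3 they ran from -0.00980 (replicate 2) to 0.363 (replicate 4), so some control pairs may also share deviations. Under the replicate block, Fcer1g with stimulation in diabetic mice was 13.3 points (limma adjusted p = 0.0675) and no other Fc receptor count changed.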
